A study of Homo sapiens with 9 samples.

Results

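Moesin, ezrin and radixin are the 3 members of a family of proteins that tie the plasma membrane to the actin cortex. They were studied here together with merlin and the protein EPB41L5, which share their membrane-binding FERM domain. The genes are MSN, EZR, RDX, NF2 and EPB41L5. A probe set was taken where 1 of these symbols was its only gene symbol in the platform's probe table. This gave 23 of the 54613 probe sets that are not Affymetrix controls, of which 2 belong to MSN, 5 to EZR, 4 to RDX, 8 to NF2 and 4 to EPB41L5. All 23 were tested, since no filter on low values was applied, and 0 probe sets of these genes carried a second symbol.

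The RNA came from Hec50, an established human endometrial cancer cell line, and was labelled with biotin for 9 Affymetrix arrays, 1 per sample. Cells on 3 arrays had received a synthetic mimic of miR-200c at 60 nM for 48 hours, and cells on 3 arrays a scrambled negative control RNA at that dose and for that time. Cells on the other 3 arrays were mock transfected, with no time given. The study asked which genes miR-200c regulates in an aggressive cancer, and all groups are the same line in the same medium. Whether the replicates are separate cultures is not stated, and the p-values cover only the spread among these arrays, which can be technical. Precision is limited by having 3 arrays in a group.

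The deposited values are log2 expression with each probe set centred on its median over the 9 arrays. They give differences between groups and hold no level, so no gene is set above another. A level class (8 or more, 4 to 8, or below 4 on the log2 scale) could still be read from the rounding of the stored numbers. Of 5 epithelial markers, EPCAM, KRT8 and KRT18 were in the class of 8 or more, and KRT19 and CDH1 in that of 4 to 8. Of 6 endometrial and Müllerian markers, PAX8 and ESR1 were in the class of 8 or more, EMX2 in that of 4 to 8 and PGR in that below 4, and HOXA10 and HOXA11 had no probe set with a single symbol. Of 5 leukocyte markers, PTPRC and LYZ were in the class below 4, CD3E and CD14 in that of 4 to 8 and CD79A in that of 8 or more. Of 4 endothelial markers, CDH5 and KDR were in the class below 4 and PECAM1 and VWF in that of 4 to 8. Of 5 fibroblast markers, LUM was in the class below 4, COL3A1, DCN and PDGFRB in that of 4 to 8 and COL1A1 in that of 8 or more. A class does not say whether a gene was detected. On the gene level CDH1, the gene of E-cadherin, stood 9.57-fold above the scrambled control in the mimic group (log2 change 3.26, SE 0.12, limma adjusted p = 1.00e-07). Over the alternative fits listed with the processing, the log2 change of CDH1 ran from 1.70 to 3.36 (limma adjusted p 2.59e-05 or less). ZEB1, a repressor of CDH1 that the miR-200 family targets, was 1.99-fold lower (log2 change -0.99, SE 0.06, limma adjusted p = 2.70e-06).

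The ezrin, radixin and moesin proteins fold shut between their FERM domain and their C-terminal tail. Binding of a membrane phosphoinositide and phosphorylation of a threonine in the tail open them, and the tail then binds actin filaments while the FERM domain binds membrane proteins. Epithelial cells are known for ezrin in apical microvilli, whereas moesin is typical of mesenchymal, endothelial and blood cells. Merlin, the product of the tumour suppressor gene NF2, lacks the actin-binding tail of its relatives and acts upstream of the Hippo kinases. EPB41L5 binds polarity proteins and is required in mouse embryos for the epithelial to mesenchymal transition at gastrulation. MicroRNAs act by pairing of the seed, bases 2 to 8, with sites in messenger RNA.

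The sequences of the miR-200 family are shown because the family falls into groups by seed, and the mimic stands for 1 of its members. They are the RefSeq mature sequences on GRCh38.p14, written 5′ to 3′ with the seed in capitals, and miR-200c-3p lies on chromosome 12 from 6963742 to 6963764 on the plus strand. The sequence of the mimic itself was not used here.
hsa-miR-200c-3p: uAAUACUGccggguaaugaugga
hsa-miR-200b-3p: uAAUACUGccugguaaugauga
hsa-miR-429: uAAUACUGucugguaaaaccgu
hsa-miR-200a-3p: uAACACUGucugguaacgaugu
hsa-miR-141-3p: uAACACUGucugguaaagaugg
miR-200c, miR-200b and miR-429 share the seed AAUACUG, and miR-200a and miR-141 share AACACUG. Sites for either seed in the 5 genes were not analysed here.

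Setting the mimic against the scrambled control asks what the miR-200c sequence adds when both groups carry a small RNA. MSN was lower in 1 of its 2 probe sets. Higher were 2 of the 4 EPB41L5 probe sets and 1 of the 4 RDX probe sets. No EZR or NF2 probe set passed. In all, 3 of the 23 probe sets were higher and 1 was lower, and 19 did not pass, at a limma adjusted p under 0.05 over all 54613 probe sets. Over all probe sets 4.52% were higher and 4.15% lower. The count of 4 became 8 without scrambled replicate 3, when 3 EZR probe sets and 1 NF2 probe set were called higher as well. The share over all probe sets in that fit is not given here. Leaving out any 1 array gave 3448 to 4494 calls over all probe sets, against 4730 with all arrays.

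**Figure D1:**
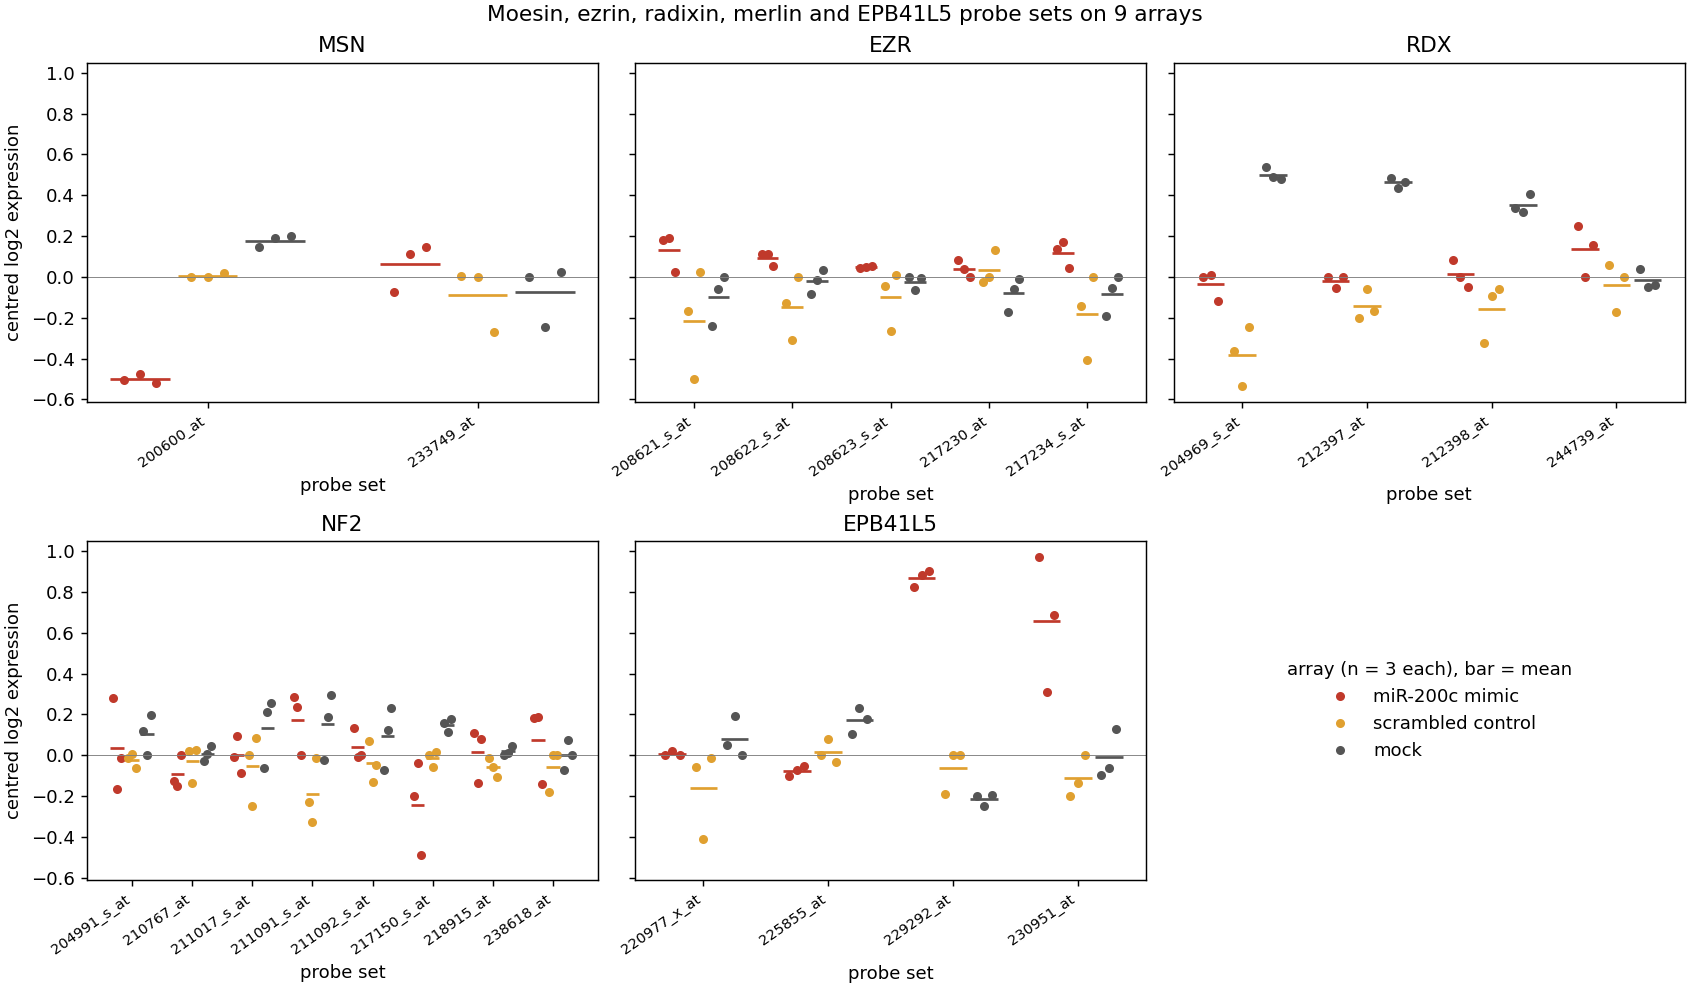
Centred log2 expression of the 23 probe sets on each array, with miR-200c mimic arrays in red, scrambled control arrays in yellow and mock arrays in grey, and a bar at the mean of 3 arrays. The mimic arrays lie lowest in MSN 200600_at and highest in EPB41L5 229292_at, and the mock arrays lie highest in 3 RDX probe sets.

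MSN encodes moesin. Its probe set 200600_at, in the class of 8 or more, had centred log2 values of -0.51, -0.48 and -0.52 on the mimic arrays, 0, 0 and 0.02 on the scrambled arrays, and 0.15, 0.19 and 0.20 on the mock arrays. The 3 groups did not overlap, and the mimic arrays lay lowest. MSN was 1.42-fold lower on the mimic arrays than on the scrambled arrays (log2 change -0.51, SE 0.05, with 3 arrays per group, limma adjusted p = 9.45e-05). Against mock it was 1.60-fold lower (log2 change -0.68, SE 0.05, limma adjusted p = 1.56e-05). The scrambled arrays also lay below the mock arrays, by a log2 change of -0.17 that did not pass over all probe sets (SE 0.05, limma adjusted p = 0.0733). It passed among the probe sets of the class of 8 or more (limma adjusted p = 0.00883). It also passed on the gene level, where MSN is this probe set alone (limma adjusted p = 0.0287), and that call ended when any 1 scrambled or mock array was left out (limma adjusted p 0.0573 to 0.0981) and with the replicate number as a block (limma adjusted p = 0.0616). The same group of authors has named MSN as a gene that responds to miR-200c, at least in part from these arrays, so its direction here is not independent of that choice.

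The second MSN probe set did not follow. 233749_at, in the class of 4 to 8, had values of -0.07, 0.11 and 0.15 on the mimic arrays, 0.0018, 0 and -0.27 on the scrambled arrays, and -0.0024, -0.25 and 0.02 on the mock arrays. The groups overlapped, and its log2 change against the scrambled control was 0.15 (95% interval -0.07 to 0.37, limma adjusted p = 0.437). The difference between both MSN probe sets was lower on the 3 mimic arrays (-0.67 to -0.43) than on the 6 control arrays (-0.0018 to 0.44), which gave p = 0.0238 in an exact two-sided permutation test, the smallest that 3 against 6 arrays allow. Over the 51 pairs of probe sets of a gene that were compared in this way, the adjusted p was 0.101. With the mean of both probe sets the log2 change of MSN against the scrambled control was -0.18 (limma adjusted p = 0.0631), so its call rests on 200600_at. In RNA of a whole culture, fewer cells that express a gene and less of its RNA per cell cannot be told apart. RefSeq also lists the pseudogenes MSNP1, EZRP1, RDXP1, RDXP2 and RDXP3, and whether probes bind RNA of these copies was not tested.

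EZR encodes ezrin, the member typical of epithelial microvilli. Its probe set 208621_s_at had values of 0.18, 0.19 and 0.02 on the mimic arrays, -0.17, -0.50 and 0.02 on the scrambled arrays, and -0.24, -0.06 and 0 on the mock arrays. Scrambled replicate 2 was the lowest array, and the mimic arrays lay just above the other groups. Its log2 change against the scrambled control was 0.35 (95% interval 0.08 to 0.61, limma adjusted p = 0.112). For the other 3 probe sets in the class of 8 or more, 208622_s_at, 208623_s_at and 217234_s_at, this change was 0.24, 0.15 and 0.30, and scrambled replicate 2 was again the lowest array in each. The 217230_at set, in the class of 4 to 8, was at 0.0061. All of the 5 missed the threshold (limma adjusted p 0.0873 to 0.973), although 3 had an unadjusted p under 0.05. These 3, 208621_s_at, 208622_s_at and 217234_s_at, were called without scrambled replicate 3 (limma adjusted p 0.0329 to 0.0358) and among the probe sets of the class of 8 or more (limma adjusted p 0.0277 to 0.0467). On the gene level the change of EZR was 0.26 and did not pass (SE 0.08, limma adjusted p = 0.0646). Without scrambled replicate 2, the lowest array, no EZR probe set was called. Against mock the EZR changes lay between 0.07 and 0.23 and none passed (limma adjusted p 0.237 to 0.585, unadjusted 0.0646 or more).

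RDX encodes radixin, a close relative found in many epithelia and in the stereocilia of the inner ear. It separated the mock arrays from both groups that received a small RNA. Probe set 212397_at had values of 0, -0.06 and 0 on the mimic arrays, -0.20, -0.06 and -0.17 on the scrambled arrays, and 0.49, 0.44 and 0.46 on the mock arrays. Every mock array lay above every transfected array. It was 1.40-fold lower with the mimic than in mock (log2 change -0.48, SE 0.05, limma adjusted p = 0.000315) and 1.52-fold lower with the scrambled control than in mock (log2 change -0.61, SE 0.05, limma adjusted p = 0.0009). These comparisons share the mock arrays.

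Probe set 204969_s_at of RDX showed the widest range. It had values of 0, 0.01 and -0.12 on the mimic arrays, -0.36, -0.54 and -0.25 on the scrambled arrays, and 0.54, 0.49 and 0.48 on the mock arrays. The 3 groups did not overlap, with the mimic arrays between the others. On the mimic arrays it was 1.27-fold above the scrambled arrays (log2 change 0.35, SE 0.07, limma adjusted p = 0.0155), 1.45-fold lower with the mimic than in mock (log2 change -0.54) and 1.84-fold lower with the scrambled control than in mock (log2 change -0.88). The call against the scrambled control ended without mimic replicate 1 or mimic replicate 2 (limma adjusted p = 0.0546 and 0.0586).

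The third RDX probe set, 212398_at, was lower than mock by a log2 change of -0.34 with the mimic and of -0.51 with the scrambled control (limma adjusted p = 0.0133 and 0.00632), and the first of these calls ended without mimic replicate 3 (limma adjusted p = 0.0533). The fourth, 244739_at, in the class below 4, did not pass in any comparison. For the mimic against the scrambled control, 212397_at, 212398_at and 244739_at were at 0.12, 0.17 and 0.17. None of these passed (limma adjusted p 0.22 to 0.236), but each had an unadjusted limma p under 0.05 (0.0441, 0.0457 and 0.0499). On the gene level, which averages the 3 RDX probe sets of the highest class, RDX on the mimic arrays exceeded the scrambled arrays by a log2 change of 0.21 (SE 0.05, limma adjusted p = 0.013), and this call ended without scrambled replicate 1 (limma adjusted p = 0.0543).

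NF2 encodes merlin and has 8 probe sets. None passed for the mimic against the scrambled control, with log2 changes from -0.23 to 0.36 and limma adjusted p from 0.0682 to 0.832, and 2, 211091_s_at and 217150_s_at, had an unadjusted p under 0.05. Probe set 218915_at, the only one in the class of 8 or more, had values of 0.11, -0.14 and 0.08 on the mimic arrays, -0.01, -0.06 and -0.10 on the scrambled arrays, and 0, 0.01 and 0.05 on the mock arrays. The groups overlapped, and its 95% interval for the mimic against the scrambled control ran from -0.08 to 0.23. NF2 was called once, in 217150_s_at, which had values of -0.20, -0.04 and -0.49 on the mimic arrays, 0, -0.06 and 0.02 on the scrambled arrays, and 0.16, 0.11 and 0.18 on the mock arrays. The mimic arrays were spread widely and lay below the mock arrays (log2 change -0.39, SE 0.10, limma adjusted p = 0.0224). This call ended when any 1 mock array was left out (limma adjusted p 0.0544 to 0.0684). In 211091_s_at the mimic arrays, at 0.28, 0.23 and 0, lay above the scrambled arrays, at -0.23, -0.33 and -0.01. Its change of 0.36 (limma adjusted p = 0.0682) passed without mimic replicate 3 or scrambled replicate 3 (limma adjusted p = 0.0426 and 0.0414). In the other direction, 217150_s_at was called lower than with the scrambled control without mimic replicate 2 (log2 change -0.33, limma adjusted p = 0.0466).

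EPB41L5 changed in some of its probe sets and not in others. In 229292_at, in the class of 4 to 8, the values were 0.82, 0.88 and 0.90 on the mimic arrays, -0.19, 0 and 0 on the scrambled arrays, and -0.20, -0.25 and -0.20 on the mock arrays. All mimic arrays lay far above all control arrays. The mimic arrays were 1.91-fold above the scrambled arrays (log2 change 0.93, SE 0.06, limma adjusted p = 1.20e-05) and 2.12-fold above the mock arrays (log2 change 1.08, SE 0.06, limma adjusted p = 5.23e-06). This was the largest change among the 23 probe sets in both comparisons. In 230951_at, of the same class, the mimic arrays were at 0.97, 0.31 and 0.69, the scrambled arrays at -0.20, -0.14 and 0, and the mock arrays at -0.10, -0.06 and 0.13. The mimic arrays again lay highest, though mimic replicate 2 was well below the other two, and the probe set was 1.70-fold higher than with the scrambled control (log2 change 0.77, SE 0.14, limma adjusted p = 0.00586).

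The remaining EPB41L5 probe sets were not called higher. 225855_at, the only one in the class of 8 or more, had values of -0.10, -0.07 and -0.05 on the mimic arrays, 0, 0.08 and -0.03 on the scrambled arrays, and 0.11, 0.23 and 0.18 on the mock arrays. The mimic arrays were lowest, by a log2 change of -0.09 against the scrambled control (limma adjusted p = 0.399) and of -0.25 against mock (SE 0.06, limma adjusted p = 0.0154). The call against mock ended without mock replicate 2 (limma adjusted p = 0.0687). 220977_x_at, whose suffix marks probes that may also bind unrelated sequences, was at 0.17 against the scrambled control and -0.07 against mock, and neither passed.

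The difference of 225855_at minus 229292_at ran from -0.95 to -0.93 on the mimic arrays and from -0.03 to 0.48 on the 6 control arrays (exact two-sided permutation test, p = 0.0238, adjusted p = 0.101 over 51 pairs). The smallest p that the mimic against the 3 scrambled arrays alone allows is 0.1. A gene-level value for EPB41L5 therefore depends on the probe sets averaged. Its log2 change against the scrambled control was -0.09 from 225855_at, its only probe set in the class of 8 or more (limma adjusted p = 0.28), and 0.44 with the mean of all 4 probe sets (limma adjusted p = 0.000186). Which transcripts each probe set detects was not tested, as no probe or transcript sequences were used here.

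**Figure D2:**
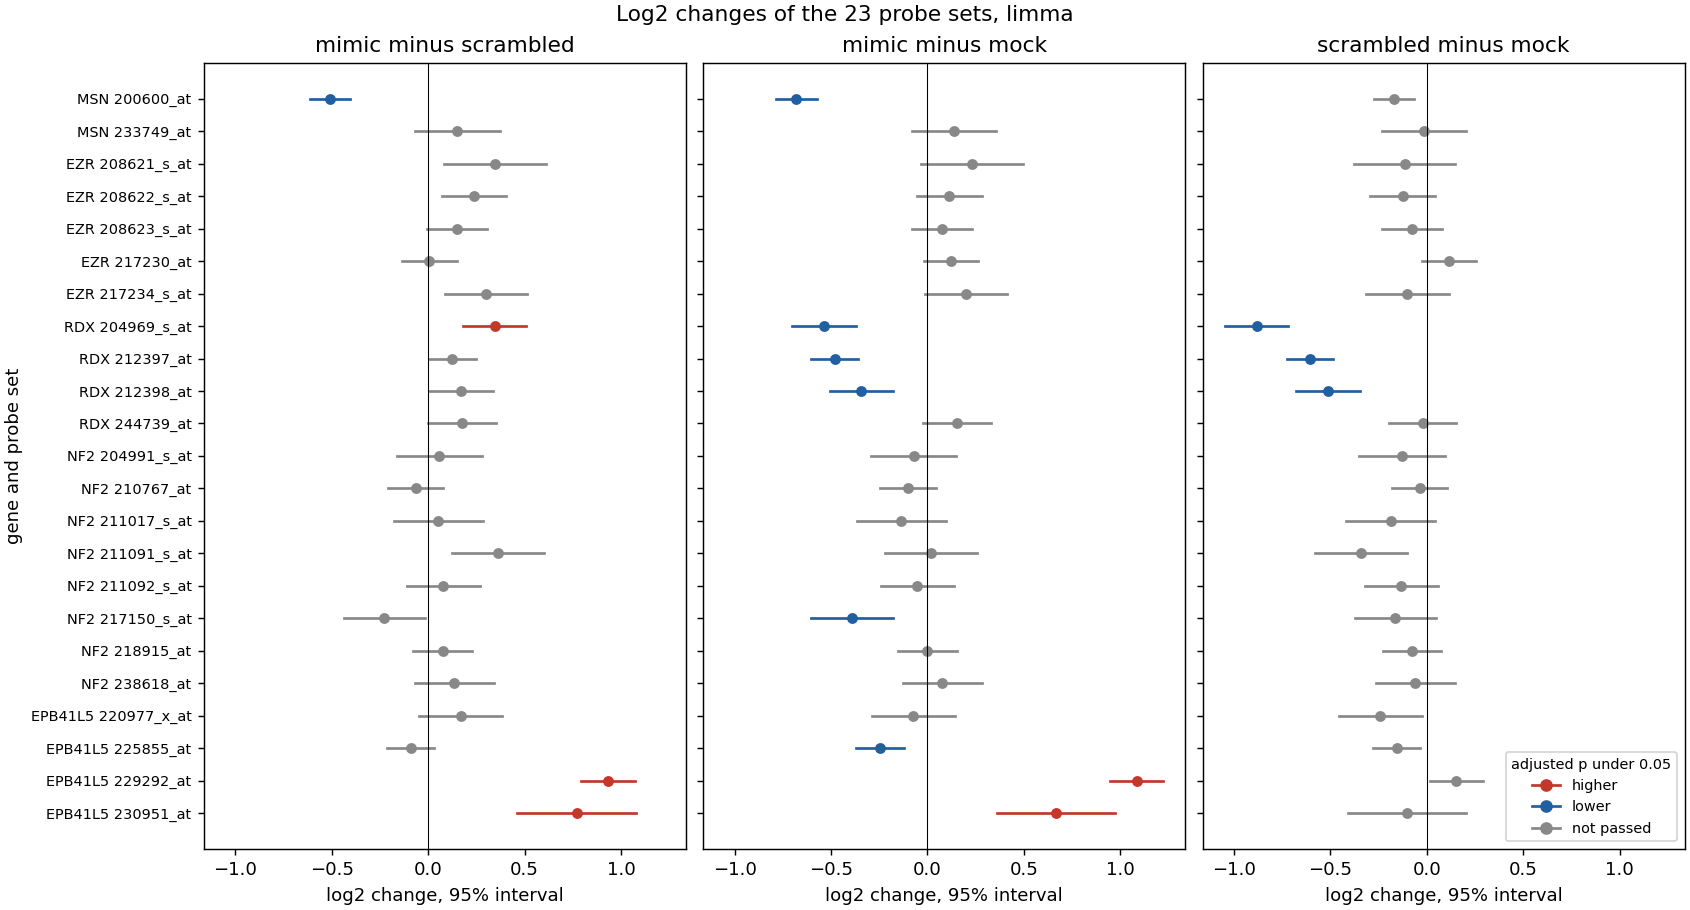
Log2 change with its 95% interval (limma, 9 arrays) for each of the 23 probe sets, for mimic minus scrambled control, mimic minus mock and scrambled control minus mock, with calls higher in red, lower in blue and not passed in grey. MSN 200600_at and 2 EPB41L5 probe sets are called in the same direction in both comparisons of the mimic. RDX 204969_s_at is called in both in opposite directions, and 3 RDX probe sets are lower than mock in both transfected groups.

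The mimic was also set against mock, in which no small RNA is named. Of the 23 probe sets, 2 were higher (both EPB41L5) and 6 were lower (1 of MSN, 3 of RDX, 1 of NF2 and 1 of EPB41L5). Over all probe sets 5.07% were higher and 6.98% lower. Between the scrambled control and mock, 0 of the 23 were higher and 3, all of RDX, were lower by limma, against 1.23% and 2.84% of all probe sets. At an unadjusted p under 0.05, 229292_at of EPB41L5 was higher and 200600_at of MSN, 211091_s_at of NF2 and 220977_x_at and 225855_at of EPB41L5 were lower as well. The centred 3′ minus 5′ value of the ACTB control probe sets, a measure of RNA integrity and labelling, moved with the same groups. It averaged 0.02 ± 0.08 on mimic arrays, 0.10 ± 0.04 on scrambled arrays and -0.18 ± 0.03 on mock arrays (SD, n = 3 each). For GAPDH it averaged -0.02 ± 0.03, 0.0073 ± 0.02 and 0.03 ± 0.04 in the same order of groups. Its part in the RDX difference was not tested.

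The pattern of each gene over the 9 arrays was set beside that of all other genes by Pearson's r of gene-level values, as a description. The genes most like MSN were FN1, the gene of the matrix protein fibronectin (r = 0.995), CRTAP, which takes part in collagen modification (r = 0.993), and MAPK7 (r = 0.992). Against the scrambled control their log2 changes were -1.09, -0.80 and -0.51. RDX was most like GDF15, a stress-induced cytokine gene (r = 0.987), SWAP70 (r = 0.986) and CITED2 (r = 0.982), whose log2 changes for the scrambled control against mock were -0.86, -0.49 and -0.58. EZR was most like ZBTB41 (r = 0.981), TOX4 (0.979) and GPR37 (0.968), NF2 most like FAM171A2 (0.974), IFI44 (0.962) and SPSB2 (0.959), and EPB41L5 most like LTBP2 (0.988), METRN (0.968) and SMIM14 (0.965). Gene-level EPB41L5 is 225855_at alone. These are the highest of 19774 correlations over 9 arrays of 3 groups, and all genes share those arrays.

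Partners and relatives of the 5 genes were counted on the gene level for the mimic against the scrambled control, where 7.61% of 19775 genes were higher and 6.96% lower, and the median change was -0.01. Of 29 scaffolds and membrane partners of the ezrin family, 5 rose, 3 fell and 21 missed the threshold, with a median of 0.01. MUC1, a membrane mucin, rose by 0.61 on the log2 scale (SE 0.06, limma adjusted p = 9.10e-05), with values of 0.46, 0.35 and 0.49 on the mimic arrays against -0.06, -0.29 and -0.17 on the scrambled arrays. CLIC5, which joins ezrin and radixin at the base of stereocilia, rose by 0.59 (SE 0.06, limma adjusted p = 8.31e-05), with 2 of its 5 probe sets called. PTGFRN, an immunoglobulin-type membrane protein, rose by 0.41 (SE 0.05).

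Among 45 other FERM domain genes, 7 rose, 7 fell and 31 did not pass, with a median of -0.02. FRMD6, which like merlin acts upstream of the Hippo kinases, rose by 0.60 (SE 0.06, limma adjusted p = 6.49e-05), with values of 0.59, 0.53 and 0.61 on the mimic arrays against -0.14, -0.03 and 0.08 on the scrambled arrays. FERMT2, the integrin activator kindlin-2, fell by 0.45 (SE 0.04, limma adjusted p = 6.99e-05). FARP1, a guanine nucleotide exchange factor, was at -0.45, but 2 of its 5 probe sets were called higher and 2 lower, and with the mean of all 5 it was at -0.14 and did not pass (limma adjusted p = 0.0775). The higher count was 4 without mimic replicate 1, mimic replicate 3, scrambled replicate 3 or mock replicate 2, and 3 without scrambled replicate 1.

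Around NF2, 5 of 29 Hippo pathway genes rose, 4 fell and 20 missed the threshold, with a median of -0.01. ANKRD1, a gene known to be induced by the Hippo effector YAP, rose 2.50-fold on the mimic arrays (log2 change 1.32, SE 0.14, limma adjusted p = 8.31e-05), with values of 1.31, 1.21 and 0.83 on the mimic arrays against -0.17, -0.44 and 0 on the scrambled arrays. Over the alternative fits the log2 change of ANKRD1 ran from 0.91 to 1.46 (limma adjusted p 0.000696 or less). Of 4 further genes of the list known to be induced by YAP, CCN1 was at 0.10, CCN2 at 0.18 and AXL at -0.07 without passing (limma adjusted p 0.163 to 0.738), and AMOTL2 fell by 0.19 (SE 0.05, limma adjusted p = 0.0311). These 4 were chosen for mention after their values were seen. WWC1 and SAV1, which encode adaptors upstream of and within the kinase cascade, rose by 0.32 and 0.29 (SE 0.05 each). Of their probe sets, 4 of 8 for WWC1 and 3 of 5 for SAV1 were called. The lower count was 2 without any 1 mimic array, scrambled replicate 1 or scrambled replicate 2, and 1 without scrambled replicate 3.

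Of 18 polarity and adhesion partners of EPB41L5, 5 rose, 1 fell and 12 missed the threshold, with a median of -0.02. PATJ, a scaffold of the Crumbs complex, rose by 0.24 (SE 0.05), with 2 of its 6 probe sets called. LIN7A, another scaffold of that complex, fell by 0.55 (SE 0.05, limma adjusted p = 2.86e-05), with 1 of its 4 probe sets called. With the mean of all 4 it was at -0.34. Against mock LIN7A was at -0.34 (limma adjusted p = 0.000715), and at -0.13 with the mean of all 4 (limma adjusted p = 0.282). The scrambled arrays lay above mock by 0.21 (limma adjusted p = 0.0243), a call that ended when any 1 mock array was left out. The higher count was 3 without mimic replicate 1, mimic replicate 3 or scrambled replicate 2. Of 19 genes listed as microvillus proteins, 2 rose, 1 fell and 16 missed the threshold, with a median of 0.0033. They were CGN, which encodes the tight junction protein cingulin and not a microvillus protein (0.63, SE 0.08), BAIAP2L1, a protein that bends membranes in microvilli (0.20, SE 0.04), and the actin bundler gene PLS3 (-0.20, SE 0.05). Of the probe sets, 1 of 3 was called for BAIAP2L1, and the only probe set of PLS3 was not called over all probe sets. The call of PLS3 ended without mimic replicate 1, mimic replicate 3, scrambled replicate 1 or scrambled replicate 3, and the lower count was 2 without scrambled replicate 2. Against mock PLS3 was at -0.05 with the mimic and 0.15 with the scrambled control, and neither passed (limma adjusted p = 0.598 and 0.093).

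**Figure D3:**
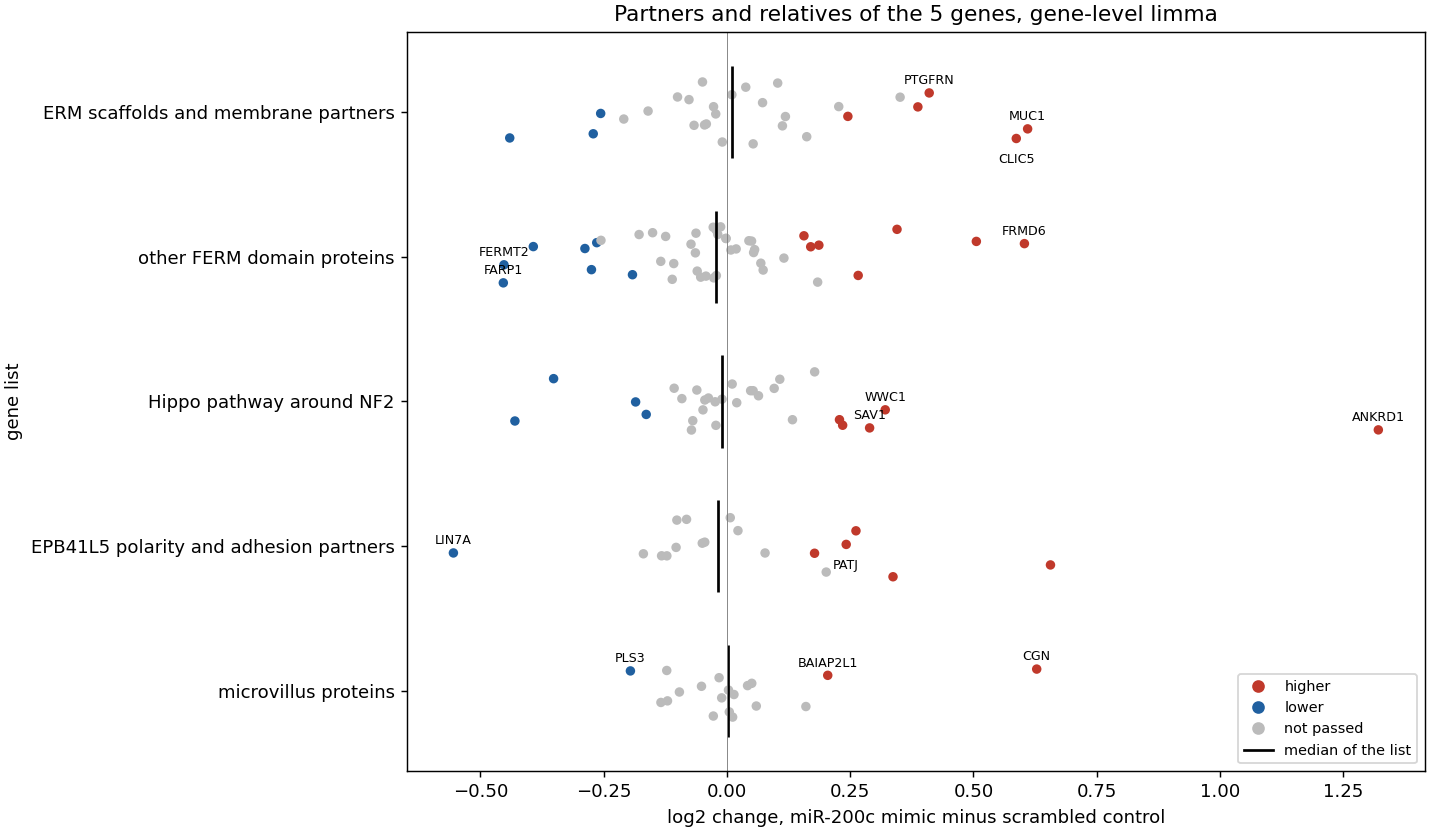
Gene-level log2 change of the mimic minus the scrambled control for the genes of 5 lists of partners and relatives, 1 point per gene, with calls higher in red, lower in blue and not passed in grey, and a black line at each list's median. The medians lie between -0.02 and 0.01, and ANKRD1 lies farthest to the right.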

How the data were processed

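RNA of 9 samples was measured on 1-colour Affymetrix arrays, and 3 arrays fall in each of 3 groups by the sample titles. The authors deposited 1 table of log2 values for 54675 probe sets. Each probe set has a median of 0 over the 9 arrays (100% of them), and each array a median of 0. How probes were summarised and normalised, and the base of the logarithm, taken here as 2, are not given in the sources used here. In 48.89% of probe sets more than 1 value was exactly 0, and such ties can lower the spread. Level classes were read from the step size of single precision numbers, and 97.5% of 6000 simulated classes were right.

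After 62 control probe sets were left out, group means of all 9 arrays were fitted per probe set with limma 3.58.1 in R 4.3.3 (lmFit, eBayes, two-sided, Benjamini-Hochberg over 54613 probe sets). The same model was fitted to 19775 genes, each the mean of its single-symbol probe sets in its highest class. The alternatives were a replicate block, quantile normalization, the class of 8 or more alone, 2 groups alone, robust variance moderation, all probe sets averaged, and each array left out. On 5 simulated sets for the mimic against the scrambled control (54613 probe sets, 200 changed), 8.8%, 71.2% and 97.6% of log2 changes of 0.25, 0.5 and 1 were recovered. Replicates of a group differed with an SD of 0.131 to 0.182 over probe sets. Deviations of same-numbered arrays of different groups correlated at -0.24 to 0.15, so the numbers were not taken as pairs. For arrays with different numbers this ran from -0.22 to 0.36. Whether arrays of different groups share a batch that the numbers do not follow was not tested.

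Named genes are all probe sets of the 5 genes, up to 3 genes per list with the smallest p for the mimic against the scrambled control, the 3 genes most like each member, and ZEB1 and CDH1. The members and lists were chosen with earlier results of these data known. Of the lists and genes this rule covers, 1 list and 1 further gene are not reported here.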

Additional observations from a re-analysis of the deposited data

How the results depend on the processing

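Of 117 alternative values for the counts of called member probe sets in 3 comparisons and for the 5 gene-level changes of the mimic against the scrambled control, 109 kept their direction and side of the threshold (counts: within 1.5 times). Without scrambled replicate 3, the count of member probe sets for the mimic against the scrambled control was 8, with 7 higher and 1 lower, and it ranged from 3 to 8 over the arrays left out. The calls over all probe sets ranged from 3448 to 4494, against 4730 with all arrays. With the 10 member probe sets of the class of 8 or more alone, 5 were called in each of the 3 comparisons. Of all 23, 4 were called for the mimic against the scrambled control, 8 for the mimic against mock and 3 for the scrambled control against mock. Over all probe sets of that class, 3469 of 15820 were called for the scrambled control against mock. The shares of that class for both comparisons of the mimic are not given here. For the mimic against the scrambled control, the gene-level change of MSN was -0.18 with all its probe sets averaged (adjusted p = 0.0631). That of EZR, at 0.26 (adjusted p = 0.0646), passed when only genes of the class of 8 or more were tested (adjusted p = 0.0295) and ran from 0.15 to 0.34 over the arrays left out (adjusted p 0.0179 to 0.169). That of RDX ran from 0.18 to 0.25, and that of EPB41L5 turned to 0.44 with all probe sets averaged, and against mock to 0.36. The cause of these changes was not tested.

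With the replicate number as a block, 0 of 69 member calls changed, and 4, 8 and 3 member probe sets were called in the 3 comparisons. With the block, 4 other FERM domain genes were higher for the mimic against the scrambled control, in place of 7. All probe sets averaged also gave 4 there. The 2 groups alone gave 2 lower Hippo genes in place of 4 and 0 lower microvillus genes in place of 1. In the class of 8 or more alone, 2 of 9 EPB41L5 partners were higher and 2 lower, in place of 5 and 1 of 18. Of 10 microvillus genes in that class 1 was higher, in place of 2 of 19. The share over all genes of that class is not given here. Over all probe sets, 2223 were called for the scrambled control against mock, and the block gave 1366. The class of 8 or more gave 3469 of its 15820 probe sets. These 2 groups alone gave 1409, and leaving out 1 of their arrays 732 to 1244. Without mock replicate 2, the mimic against mock gave 4349 calls in place of 6585. In the simulated data, where 200 probe sets were changed, recovery was 8.8% at a log2 change of 0.25 and 71.2% at 0.5. The mimic against the scrambled control had 4730 calls, and with more calls the adjusted p is less strict. The simulation therefore does not give the limit of these 9 arrays, and small changes of a member may still be missed.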
